A study of Sus scrofa with 12 samples.

Results

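The miR-30 family is a set of microRNAs whose names in the small RNA files begin with ssc-miR-30 and a letter from a to e. The rule found 10 such names on 11 rows, of 765 small RNA names on 845 rows in all, and where a name had 2 rows the one with the higher mean count was used. The 10 names are miR-30a-5p, miR-30a-3p, miR-30b-5p, miR-30b-3p, miR-30c-5p, miR-30c-1-3p, miR-30c-3p, miR-30d, miR-30e-5p and miR-30e-3p, and they come from 6 precursors. All 10 passed the filter on low values, an RPM (reads of a name per 1000000 reads counted in its library) of at least 1 in at least 3 of 6 libraries, as did 421 names in all.

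The study sequenced testis tissue of adult male pigs 12 months old. Small RNA came from 3 Duroc libraries (breed labelled Western Duroc) and 3 Large white libraries, with no treatment named for either breed. Diannan small-ear pigs, which the design also names, and the 6 libraries of long RNA were not analysed here. Whether each library came from its own animal is not stated in the labels. The p-values therefore reflect only how far these libraries spread, and some of that spread may be technical.

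MicroRNAs are cut from hairpin precursors, whose 2 strands give a 5p arm and a 3p arm. Usually 1 arm is loaded into an Argonaute protein and the other is degraded. In vertebrates the 5p arms of the miR-30 family share their seed, the bases that pair with target messages, while the 3p arms carry other seeds. The family is known from kidney, heart and epithelia, where it is linked to keeping epithelial cells from turning mesenchymal. The name miR-30d has no arm suffix here and is read as the 5p arm of its precursor, as it is known to be.

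The 6 precursors lie as 3 pairs on 3 chromosomes of Sscrofa11.1, by RefSeq's gene table. On chromosome 1, mir-30c-2 (51383782 to 51383861) and mir-30a (51412827 to 51412933) start 29045 bases apart within the span of LOC102157778, which the table lists as protein-coding. On chromosome 4, mir-30d (6948669 to 6948747) and mir-30b (6952794 to 6952869) start 4125 bases apart outside the span of any gene listed other than miRNAs. ZFAT, a zinc finger gene, is the nearest coding gene, 16823 bases from mir-30b. On chromosome 6, mir-30c-1 (170426781 to 170426860) and mir-30e (170429841 to 170429920) start 3060 bases apart within the span of NFYC, which encodes a subunit of the transcription factor NF-Y. Both mir-30c precursors give the same mature miR-30c-5p, so its reads stand on both rows and cannot be assigned to chromosome 1 or 6. The 3p arms miR-30c-1-3p and miR-30c-3p are particular to their precursors.

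The libraries held 1313042 to 12474430 reads with 1 row counted per name, and 26073 to 94660 of these were miR-30 reads. Duroc libraries 1 and 3 stand apart from the other 4. The stromal miR-143-3p took 51.5% of reads in Duroc library 1 and 35.5% in Duroc library 3. Its share was 25.5% in Duroc library 2 and 18.9% to 29.5% in the Large white libraries. miR-34c, a miRNA of meiotic and later germ cells, took 0.129% and 0.329% in these 2 libraries, whereas Duroc library 2 had 2.07% and the Large white libraries had 1.41% to 2.17%. Markers were sought by exact name, and of the 5 listed for those cells only miR-34c was found. Of the 5 stromal markers 4 were found, while miR-214 stood under the names of its 2 arms and was not counted. The summed share of the 4 was 26.3% to 52.3% in Duroc and 19.9% to 30.5% in Large white, most of it miR-143-3p. By contrast, the share of miR-145-5p was lower in every Duroc library (0.119% to 0.149%) than in any Large white library (0.197% to 0.239%). So was that of miR-199a-5p, at 0.339% to 0.364% against 0.444% to 0.591%. miR-199a-3p overlapped, at 0.240% to 0.309% and 0.268% to 0.419%. Both endothelial markers summed to 0.617% to 1.15% in Duroc and 1.05% to 1.32% in Large white, and the 2 gonadal somatic markers to 0.451% to 1.40% and 1.33% to 1.69%. The 6 blood markers summed to 0.170% to 0.565% and 0.257% to 0.570%, and the 3 of striated muscle to 0.353% to 0.414% and 0.664% to 0.852%. The 3 measured of 5 epithelial markers summed to 0.00584% to 0.0311% and 0.0269% to 0.0408%. Most of these sums was miR-451, miR-1 and miR-200b, respectively. The muscle marker miR-206 overlapped, at 0.00306% to 0.00467% in Duroc and 0.00173% to 0.00604% in Large white. No measured marker was at 0 in any library. The part of cell makeup in the miR-30 results was not tested, and in whole tissue fewer cells of a type and less of a miRNA per cell cannot be told apart.

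As a whole, the miR-30 names took a smaller share of reads in every Duroc library than in any Large white library. Duroc libraries 1 to 3 had shares of 0.759%, 1.74% and 1.04%, and Large white libraries 1 to 3 had 2.41%, 2.14% and 1.81%. The Duroc mean was 1.18 ± 0.50% and that of Large white 2.12 ± 0.30% (SD, n = 3 each). Duroc library 2 lay just under the lowest Large white value, while Duroc libraries 1 and 3 lay far below it. This order depends on the scaling. In TMM-normalised RPM the family sum was 16348, 13295 and 13133 in Duroc libraries 1 to 3 and 15702 to 17737 in Large white. Duroc library 1 then fell within the Large white range. The summed shares of let-7, miR-26, miR-29 and miR-181 likewise did not overlap between the breeds. let-7, for example, took 5.94 ± 2.08% of Duroc reads and 8.56 ± 0.38% of Large white reads, so the low Duroc share is not particular to miR-30. In TMM-normalised RPM the families did not all go the same way. Duroc and Large white means (± SD) were 73159 ± 10959 and 67192 ± 6583 for let-7, and 58000 ± 25552 and 42317 ± 5075 for miR-26. They were 1015 ± 373 and 923 ± 48.0 for miR-29, 1621 ± 300 and 1632 ± 8.95 for miR-181, and 14259 ± 1811 and 16529 ± 1070 for miR-30. With miR-143-3p left out of the total, the mean miR-30 share became 1.84% for Duroc and 2.76% for Large white.

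The 5p arms dominated the family. The 5 names of 5p arms held 90.6% to 92.5% of miR-30 reads in every library. The Duroc mean was 91.5 ± 0.82% and the Large white mean 91.6 ± 0.81% (SD, n = 3 each). The 5 names of 3p arms shared the rest, mostly as miR-30e-3p.

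miR-30d, from chromosome 4, had the highest mean level over the libraries. Duroc libraries 1 to 3 had 1796, 5173 and 2681 RPM, and Large white libraries 1 to 3 had 7687, 5446 and 4689 RPM. Its rank among the 457 names with a miRNA name lay between 17 and 32. The Duroc value of library 2 fell inside the Large white range and the other 2 lay under it.

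miR-30a-5p, from chromosome 1, was at a like level. It had 2819, 3472 and 2724 RPM in Duroc and 4681, 5511 and 4426 RPM in Large white. All 3 Duroc values lay under all 3 Large white values. The order of these top members was not stable: miR-30a-5p led miR-30d in Duroc libraries 1 and 3 and in Large white library 2, and miR-30d led in the other 3 libraries.

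miR-30e-5p, from the NFYC locus, was next in the mean. It had 933, 3576 and 1965 RPM in Duroc and 4952, 4015 and 3470 RPM in Large white, where Duroc library 2 fell within the Large white range. miR-30c-5p, the product of both mir-30c precursors, had 1100, 2935 and 1687 RPM in Duroc and 3932, 3510 and 3105 RPM in Large white, and the breeds did not overlap. In Large white the means of miR-30d, miR-30a-5p, miR-30e-5p and miR-30c-5p were 5941 ± 1559, 4873 ± 568, 4146 ± 750 and 3516 ± 413 RPM (SD, n = 3 each). Each of these neighbours in the order differed by less than the larger of their SDs, whereas miR-30e-3p, at 1369 ± 92.9 RPM, lay well below them.

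The fifth 5p arm, miR-30b-5p, was much less abundant than its chromosome 4 neighbour. It had 312, 847 and 365 RPM in Duroc and 1054, 1145 and 769 RPM in Large white. miR-30d had between 4.76 and 7.35 reads for each read of miR-30b-5p, so the pair kept its order in all 6 libraries.

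Among the 3p arms, miR-30e-3p alone reached the range of the 5p arms. It had 431, 1040 and 711 RPM in Duroc and 1445, 1396 and 1266 RPM in Large white, above miR-30b-5p in every library. miR-30a-3p had 161, 223 and 195 RPM in Duroc and 263, 312 and 276 RPM in Large white. Neither of these 3p arms overlapped between the breeds in RPM.

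The remaining 3p arms were scarce. miR-30c-1-3p had 17.7 to 59.0 RPM in Duroc and 52.9 to 66.3 RPM in Large white, and miR-30c-3p had 14.99 to 25.1 and 27.4 to 34.7 RPM. miR-30b-3p was the scarcest, with 16 to 109 reads per library. Its 43 reads in Duroc library 1 came to 3.45 RPM (exact Poisson 95% interval 2.49 to 4.64, counting error only), against 12.2 to 20.1 RPM in the other 5 libraries. From miR-30e-3p down to miR-30b-3p the order of the 6 lowest members was the same in each of the 6 libraries.

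**Figure D1:**
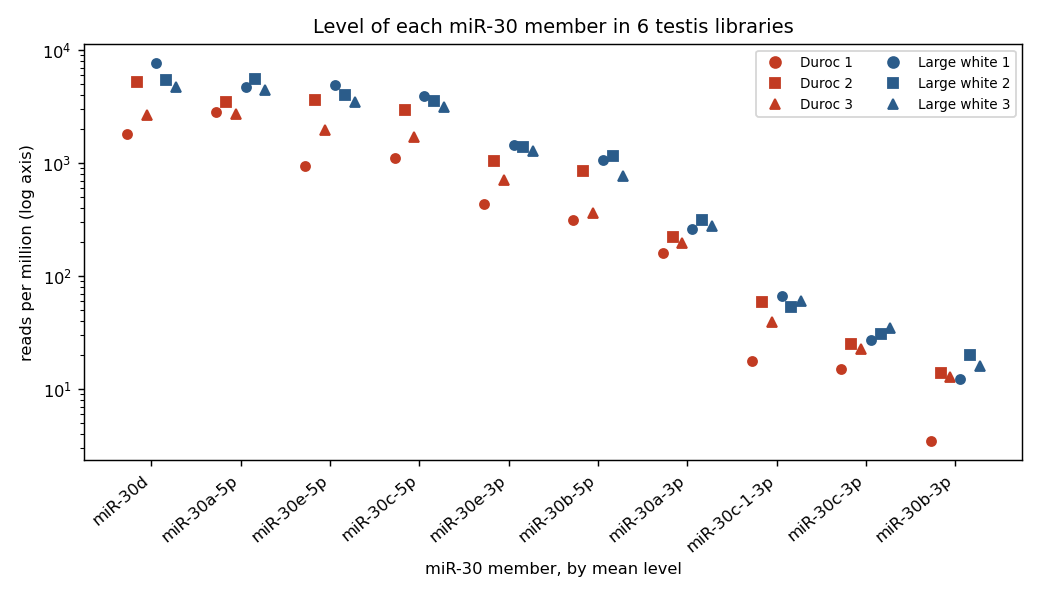
RPM (log axis) of the 10 miR-30 members in 6 testis libraries, Duroc in red and Large white in blue, 1 point per library. Members run from miR-30d at 1796 to 7687 RPM to miR-30b-3p at 3.45 to 20.1 RPM, and Duroc library 1 has the lowest or nearly the lowest point for every member.

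In the edgeR quasi-likelihood test over 421 names, no miR-30 member passed the adjusted threshold of 0.05 between the breeds. No name of any kind passed with TMM scaling (0% of those tested), and 60 names (14.3%) had an unadjusted p under 0.05, none of them a miR-30 member. DESeq2 called 11 names and limma called 0, again with no miR-30 member. The smallest adjusted p among the members was 0.383, for miR-30e-5p. With scaling to total reads, edgeR again called no name after adjustment, and 54 names (12.8%) had an unadjusted p under 0.05, among them miR-30a-5p, miR-30c-5p and miR-30e-3p (adjusted p = 0.386 each).

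TMM scaling, which sets the levels of most miRNAs equal on average, removed much of the gap seen in shares. Its factor was 0.464 in Duroc library 1 and 0.792 in Duroc library 3, whereas Duroc library 2 had 1.31 and the Large white libraries 1.15 to 1.36. The median log2 fold change of the 10 members, Duroc minus Large white, was -0.22 with TMM, beside 0.06 for all 421 names. It was -0.79 with scaling to total reads, beside -0.56 for all names. The members' median thus lay below that of all names under both scalings, and 7 of 10 members did so with TMM and 9 of 10 with total scaling. Below 0 were 7 of 10 members with TMM and all 10 with total scaling, beside 46.8% and 81.7% of all names.

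miR-30e-5p had 2011, 2738 and 2481 TMM-normalised RPM in Duroc and 3641, 3025 and 3008 in Large white. Every Duroc value lay below every Large white value, with a log2 fold change of -0.42 (SE 0.23, adjusted p = 0.383). miR-30e-3p had 928, 796 and 897 in Duroc and 1063, 1051 and 1097 in Large white, also without overlap, and its log2 fold change was -0.29 (SE 0.21, adjusted p = 0.478). The arms of the NFYC-locus mir-30e thus had differences of the same sign and like size.

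For miR-30c-5p the values were 2371, 2247 and 2130 TMM-normalised RPM in Duroc and 2891, 2644 and 2692 in Large white. miR-30d had 3868, 3961 and 3385 in Duroc and 5653, 4102 and 4065 in Large white. Neither overlapped, and their log2 fold changes of -0.29 (SE 0.21) and -0.30 (SE 0.24) missed the threshold (edgeR adjusted p = 0.491 and 0.529). These 4 members of 10 that did not overlap stand beside 23.3% of all names tested, and beside 11.4% that did so with Duroc lower. With total scaling 5 members did not overlap, beside 24.2% of all names. They were miR-30a-5p, miR-30c-5p, miR-30e-3p, miR-30a-3p and miR-30c-3p, so only miR-30c-5p and miR-30e-3p did not overlap under both scalings.

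miR-30b-5p had 673, 649 and 460 TMM-normalised RPM in Duroc and 775, 862 and 667 in Large white. The breeds overlapped, at a log2 fold change of -0.37 (SE 0.25, adjusted p = 0.453). The scarce miR-30c-1-3p and miR-30b-3p had log2 fold changes of -0.08 (SE 0.26) and -0.16 (SE 0.41).

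The arms miR-30a-5p, miR-30a-3p and miR-30c-3p had small positive values with TMM, which total scaling turned negative as it moved the median of all names down. miR-30a-5p had 6073, 2658 and 3439 TMM-normalised RPM in Duroc and 3442, 4151 and 3837 in Large white. Duroc library 1 was above, and Duroc library 2 below, every Large white library. Its log2 fold change was 0.09 (SE 0.33, adjusted p = 0.928) with TMM, -0.70 with total scaling and -0.30 with TMM without Duroc library 1. miR-30a-3p and miR-30c-3p had 0.19 (SE 0.29) and 0.14 (SE 0.32) with TMM, and -0.56 each with total scaling. With Duroc libraries 1 and 3 left out, all 10 members had a log2 fold change below 0, with a median of -0.24 and no member called. That fit set 1 Duroc library against 3 Large white libraries. Of all 396 names tested, 52.5% lay below 0, their median was -0.017 and 1 was called.

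**Figure D2:**
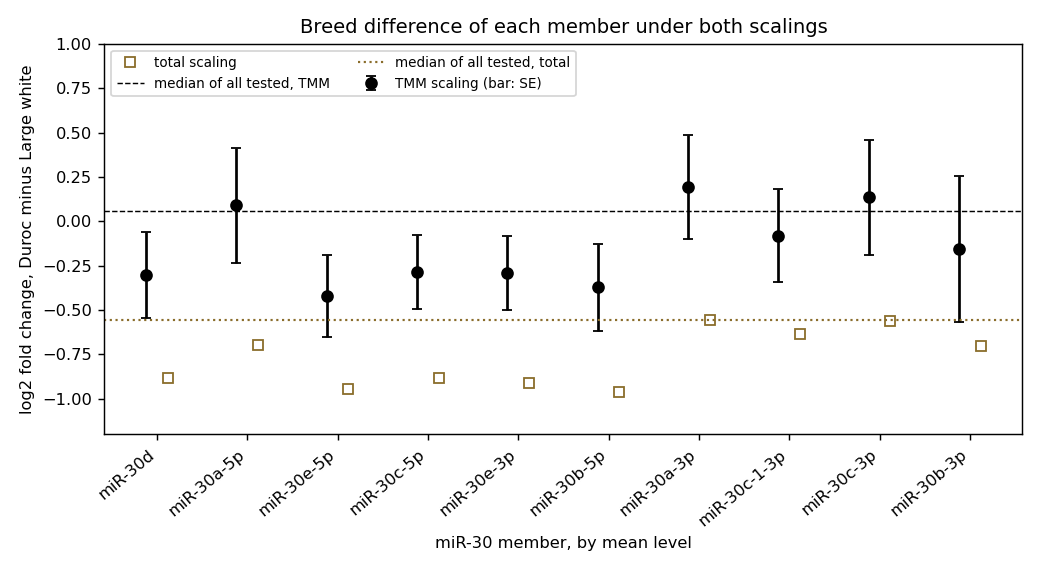
Log2 fold change, Duroc minus Large white, of each miR-30 member by edgeR with TMM scaling (black, bars are 1 SE) and with total scaling (open squares), with the median of all 421 names under each as lines. With TMM the members run from -0.42 to 0.19 around a median of -0.22, and with total scaling all 10 lie at -0.56 or below.

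Ratios between members within a library do not depend on scaling. Of those computed, the ratios of mir-30a arms to members made on chromosomes 4 and 6 varied most over all libraries. All of these were highest in Duroc library 1. miR-30a-5p had 1.57, 0.671 and 1.02 reads for each read of miR-30d in Duroc libraries 1 to 3. Large white libraries 1 to 3 had 0.609, 1.01 and 0.944. The ratio was highest in Duroc library 1 and lowest in Large white library 1, with Duroc library 2 close to the latter. The breeds overlapped, at 1.09 ± 0.45 and 0.855 ± 0.216 (SD, n = 3 each; exact permutation p = 0.4, two-sided). Against miR-30e-5p the ratio of miR-30a-5p was 3.02, 0.971 and 1.39 in Duroc and 0.945, 1.37 and 1.28 in Large white, a 3.20-fold range. Its Duroc mean of 1.79 was 1.18 without Duroc library 1.

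The 3p arms gave the same picture. miR-30a-3p had 0.374, 0.214 and 0.275 reads for each read of miR-30e-3p across the Duroc libraries and 0.182, 0.224 and 0.218 across the Large white ones. Duroc library 1 was highest and Large white library 1 lowest, as for the 5p arms.

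The 3p arms particular to each mir-30c precursor allow 3p reads of the chromosome 6 and chromosome 1 copies to be compared. miR-30c-1-3p had 1.18, 2.35 and 1.73 reads for each read of miR-30c-3p in Duroc, and 2.42, 1.73 and 1.74 in Large white. The 3p arm of the chromosome 6 copy had more reads in all 6 libraries, which does not show how much precursor each copy gave. The ratio was lowest in Duroc library 1, where miR-30a-5p was highest against miR-30d, and highest in Duroc library 2 and Large white library 1, where that ratio was lowest. As a share of all miR-30 reads, however, miR-30c-3p was highest in Duroc library 3 (0.219%) and not in Duroc library 1 (0.198%), where miR-30a-5p and miR-30a-3p were highest. These ratios rest on 36 to 195 reads of miR-30c-3p per library.

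Over 6 libraries, ratios between members made only on the same chromosome varied less than those of miR-30a-5p to the other 5p arms. Each of these miR-30a-5p ratios was highest in Duroc library 1, and the contrast rests largely on that library. Without it they were 0.945 to 1.39 to miR-30e-5p, 1.18 to 1.61 to miR-30c-5p, 0.609 to 1.02 to miR-30d and 4.10 to 7.47 to miR-30b-5p. The ratios to miR-30e-5p and miR-30c-5p then varied no more than miR-30d to miR-30b-5p, which stayed at 4.76 to 7.35. Only some of the possible pairs were computed, and the 2 arms of mir-30b, from 1 precursor, had ratios from 28.5 to 89.6. miR-30a-3p had 8.58 to 10.7 reads (Duroc) and 7.96 to 10.2 reads (Large white) for each read of miR-30c-3p, a 1.35-fold range over 6 libraries. miR-30e-3p had 17.6 to 24.3 and 20.9 to 26.4 reads for each read of miR-30c-1-3p, a 1.497-fold range, and miR-30d against miR-30b-5p spanned 1.55-fold. By comparison, the ratios of miR-30a-5p to miR-30d and miR-30b-5p spanned 2.58-fold and 2.20-fold. The ratio of miR-30a-5p to miR-30c-5p, which is made on chromosome 1 as well as chromosome 6, spanned 2.17-fold. miR-30d to miR-30e-5p, on different chromosomes, spanned only 1.42-fold. Ratios of scarce arms carry more counting error, so these ranges are a description. Of 10 ratios between members computed, none separated the breeds, and the smallest exact permutation p was 0.3 (adjusted p = 0.625), where 3 against 3 libraries cannot go below 0.1.

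Duroc libraries 1 and 3 had the lowest miR-34c shares, 0.129% and 0.329%, and the highest ratios of miR-30a-5p to miR-30d, 1.57 and 1.02. The ratio in Duroc library 3 was close to the 1.01 of Large white library 2, which had 2.05% miR-34c. Whether the germ cell or stromal content of a library has a part in the ratios was not tested.

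**Figure D3:**
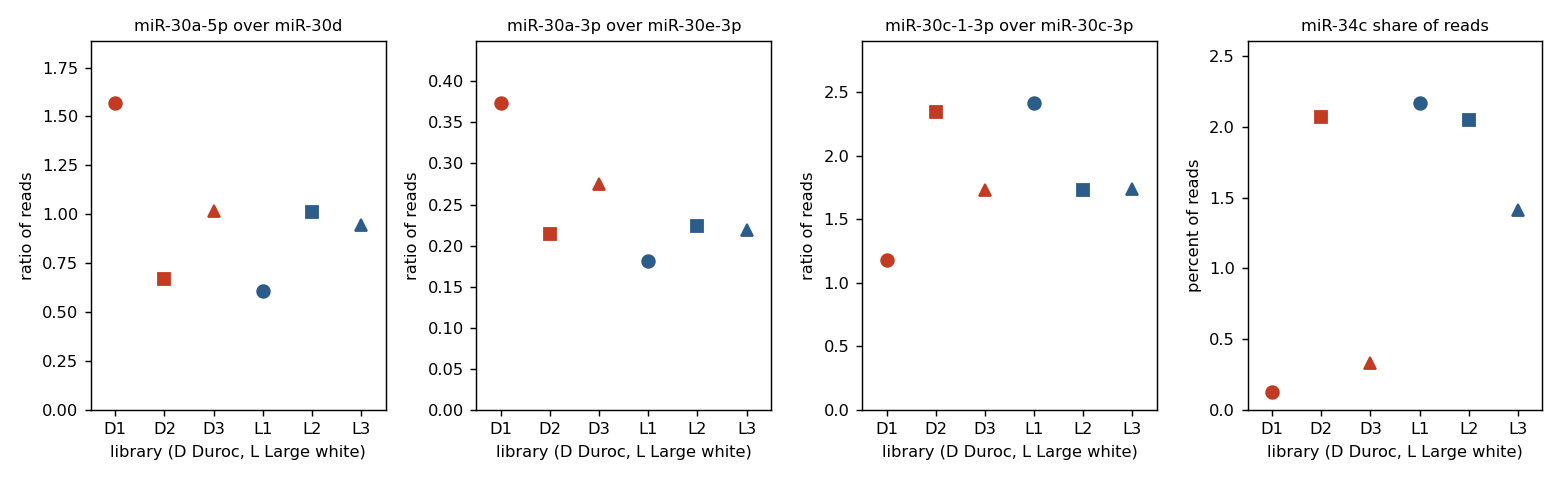
Ratios of reads between members on different chromosomes, and the share of the germ cell miRNA miR-34c, in each library (Duroc in red, Large white in blue). Duroc library 1 is highest for miR-30a-5p over miR-30d (1.57) and miR-30a-3p over miR-30e-3p (0.374) and lowest for miR-30c-1-3p over miR-30c-3p (1.18), and Large white library 1 is at the other end of each.

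The makeup of the family in percent showed no separation of the breeds. In Duroc libraries miR-30d held 23.7%, 29.8% and 25.8%, and in Large white libraries 31.9%, 25.4% and 25.9%, of miR-30 reads. miR-30a-5p held 37.1%, 19.99% and 26.2% in Duroc and 19.4%, 25.7% and 24.4% in Large white. The 37.1% of Duroc library 1 was the highest share of any member in any library. miR-30e-5p made up 12.3% there, against 18.7% to 20.6% in the other 5 libraries.

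miR-30c-5p was the steadiest of the abundant members, with 15.9 ± 1.24% of the Duroc and 16.6 ± 0.47% of the Large white miR-30 reads (SD, n = 3 each). miR-30e-3p held 6.17 ± 0.60% and 6.50 ± 0.50%, and miR-30b-5p 4.17 ± 0.69% and 4.65 ± 0.60%. All 10 members overlapped between the breeds. The smallest exact permutation p was 0.2, for miR-30c-3p (0.187 ± 0.038% against 0.149 ± 0.039%, n = 3 each; adjusted p = 0.75 over 10 members).

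**Figure D4:**
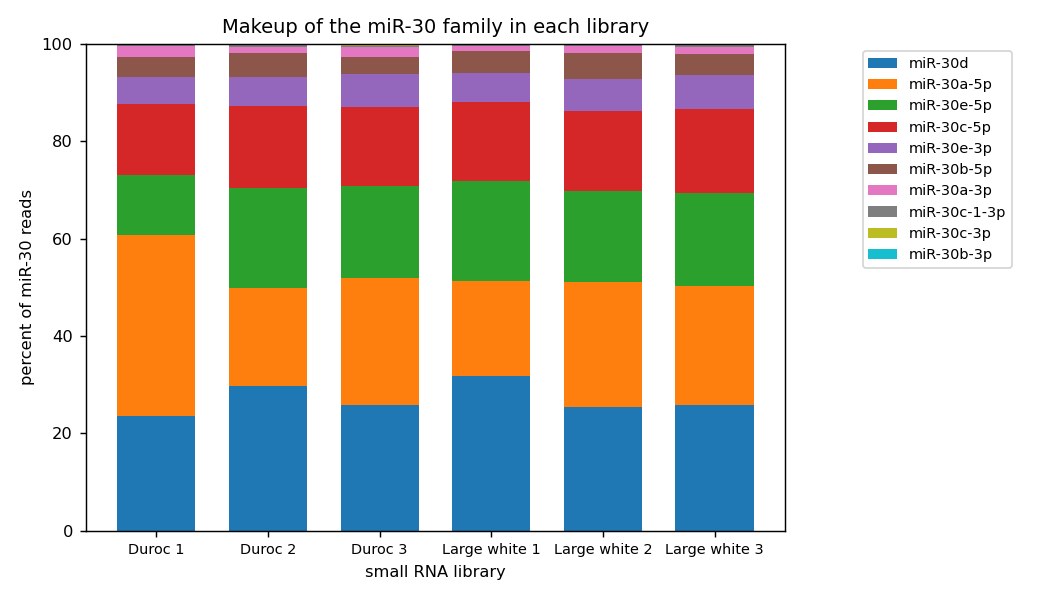
Share of miR-30 reads held by each member, stacked, in each of the 6 libraries. The miR-30a-5p segment is tallest in Duroc library 1 (37.1%) and the miR-30e-5p segment shortest there (12.3%), while the 5 libraries beside it hold 18.7% to 20.6% miR-30e-5p.

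The arms of each precursor were compared within libraries, as the reads of the 5p arm over those of the 3p arm with 0.5 added to each. Both arms were named for 5 of the 6 mir-30 precursors, and mir-30d has only 1 name. In all 5 precursors the 5p arm led in every library, by 2.17-fold to 141-fold. Of the 88 precursors that reached 30 reads over both arms in every library, 47 had more 5p than 3p reads, with a median log2 ratio of 0.58. The mir-30 precursors lay at ranks 22 to 40 in that order, and at ranks 5 to 18 of the 46 precursors with at least 10 reads of each arm in every library. Some of the 88 share both named arms, such as mir-218-1 with mir-218-2 and mir-490-1 with mir-490-2. Counts and percentages over the 88 take such precursors separately, so the same reads enter more than once. In 18 of the 88 an arm had 0 reads in at least 1 library, so that their ratios are set in part by the added 0.5 and by depth. Among the 4 most extreme precursors, mir-218-1 had 1810 to 35551 reads of its 5p arm and 0 of its 3p arm, and mir-381 had 448 to 6533 reads of its 3p arm and 0 of its 5p arm, so no ratio is given for them. The other 2 were mir-21, with 3 to 24 reads of its 3p arm, and mir-143, with a mean log2 ratio of -11.41.

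mir-30c-2 had the highest mean ratio as counted, with 73.2, 116 and 74.0-fold in Duroc and 141, 114 and 88.5-fold in Large white. mir-30c-1 had 61.9, 49.6 and 42.8-fold in Duroc and 58.9, 66.1 and 51.0-fold in Large white. The reads of miR-30c-5p from both precursors enter both ratios, so each overstates the lead of its own 5p arm by an amount that cannot be known from these counts. mir-30b had 89.6, 60.5 and 28.5-fold in Duroc and 83.9, 56.5 and 47.1-fold in Large white, the widest spread, on the 16 to 109 reads of miR-30b-3p.

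mir-30a had a tighter and smaller lead of 17.5, 15.6 and 13.9-fold in Duroc and 17.8, 17.6 and 15.99-fold in Large white. Its 3p arm made up 5.32% to 6.69% of the reads of both arms.

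mir-30e was the exception in size: its 5p arm led by only 2.17, 3.44 and 2.76-fold in Duroc and 3.43, 2.88 and 2.74-fold in Large white. Its 3p arm thus held 22.5% to 31.6% of the reads of both arms, with the highest share in Duroc library 1. The highest mir-30e ratio lay below the lowest ratio of each of the other 4 precursors. For mir-30c-1 and mir-30c-2 those ratios hold the 5p reads of both mir-30c precursors.

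**Figure D5:**
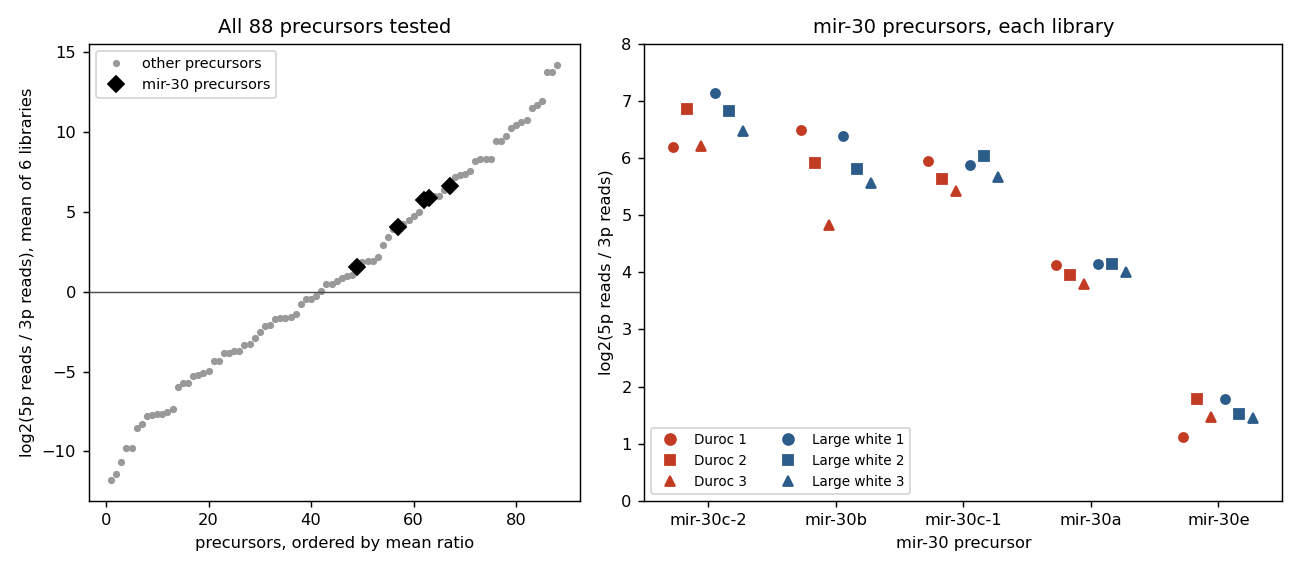
Left, mean log2 ratio of 5p to 3p reads for the 88 precursors tested, with the mir-30 precursors as diamonds; 18 precursors have an arm at 0 in a library, and their positions follow the added 0.5. Right, the log2 ratio of each mir-30 precursor in each library (Duroc in red, Large white in blue), where mir-30e lies at 1.12 to 1.78 and the other 4 lie above 3.8.

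The mir-30 arm ratios overlapped between the breeds. None of the 5 mir-30 precursors passed limma over the 88 precursors, and none was without overlap between the breeds, beside 27.3% of all precursors. Of the 88, 2 passed (2.27%), and 17 (19.3%) had an unadjusted p under 0.05, with no mir-30 precursor among them. Those that passed were mir-381 and mir-7142, whose 5p arms had at most 1 read per library, so their ratios follow 3p reads and depth, and these calls are not read as arm differences. The names mir-7142 and, for the restricted set, mir-425 were picked with their values known. The number that passed ranged from 0 to 8 over the alternatives, with 8 without Duroc library 2 and 0 without Duroc library 1, Duroc library 3, Large white library 1 or Large white library 3. Among the 46 precursors with at least 10 reads of each arm, a restriction chosen after seeing the data, 1 passed (2.17%), mir-425, and 10 (21.7%) did not overlap. None of the 5 mir-30 precursors passed there (smallest limma adjusted p = 0.445). The difference of log2 ratios, Duroc minus Large white, was -0.13 for mir-30a (95% interval -0.68 to 0.41, adjusted p = 0.778) and -0.13 for mir-30e (-0.78 to 0.52, adjusted p = 0.802). It was -0.18 for mir-30b (-1.30 to 0.94), -0.20 for mir-30c-1 (-0.82 to 0.42) and -0.39 for mir-30c-2 (-1.14 to 0.35). All 5 lay below 0, with a median of -0.18 beside -0.17 for all 88 precursors, so the common sign is also that of most precursors. The intervals of mir-30b and mir-30c-2 reach below -1, so a difference of that size lies within them.

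The miRNAs outside the family whose levels were most like those of the leading members were sought among 290 tested names, by Pearson's r of log2(TMM-normalised RPM + 1) over 6 libraries. The member with the most reads was miR-30a-5p, and that with the highest mean RPM was miR-30d. For miR-30a-5p the 5 names were miR-497 (r = 0.970), miR-378b-3p (0.966), miR-769-5p (0.961), miR-26b-5p (0.955) and miR-133b (0.950). With Duroc libraries 1 and 2 left out, the libraries farthest from the median, r was 0.881 for miR-769-5p and 0.222 to 0.626 for the other 4, so those rest on these libraries. Spearman's rho was 0.714 to 0.943. With scaling to total reads r was 0.120 for miR-133b and 0.907 to 0.955 for the other 4.

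For miR-30d the 5 names were miR-582-5p (r = 0.924), miR-15a (0.917), miR-103 (0.905), miR-365-3p (0.904) and miR-19b (0.894). Without Duroc library 3 and Large white library 1, r was 0.981 for miR-19b and 0.151 to 0.565 for the others. miR-19b had 100, 137 and 95.005 TMM-normalised RPM in Duroc and 235, 172 and 157 in Large white, the same order of libraries as miR-30d. No name stood in both lists. Being the highest of 290 values over libraries that share their scale factors, these correlations are given as a description without p-values.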

How the data were processed

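The submitters' processing notes name Bowtie 1.3.1, Salmon 1.9.0, STAR 2.7.10a and the build susScr11. Which of these tools made the small RNA values is not given in the sources used here. Per the file headers, the authors deposited a whole-number read count for each mature miRNA of each precursor, and normalized values that equal RPM over each library's summed counts. Members and lists were chosen with earlier results of these data known.

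For each name the row with the highest mean read count was kept, and RPM and shares were computed again over these rows; the filter used the deposited RPM. Breeds were compared across all 421 names with edgeR 4.0.16 (quasi-likelihood, TMM) in R 4.3.3, on counts, with breed as the only term. SE is the log2 fold change divided by the root of edgeR's F. Arm ratios were compared across 88 precursors with limma 3.58.1. Adjusted p-values are Benjamini-Hochberg, with a threshold of 0.05, and other p-values are unadjusted. DESeq2 1.42.0, limma, other scalings and filters, a replicate block and left-out libraries were alternatives. Shares and ratios used two-sided exact permutation tests. The fits were also run on simulated counts with a fixed spread and no outlying library. That run does not show how they perform on these libraries. Every member was named, with the 5 most alike miRNAs, the markers and the 2 most extreme arm ratios on each side.

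5p members differ by few bases, so counting could split reads between them. Counting intervals cover counting error only, as reads carry no molecular identifiers. With 1313042 reads in the shallowest library, only the scarce 3p arms were limited by depth. Libraries 1, 2 and 3 of the breeds share only a number: their deviations from the breed means had correlations of -0.24, -0.13 and -0.06 across names. No 2 libraries of a breed agreed within sampling noise. Sequences are not used here, and RNA transcripts without gene names were not used here.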

Additional observations from a re-analysis of the deposited data

How the results depend on the processing

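No alternative called a miR-30 member or a mir-30 arm ratio. With the replicate block the members' median log2 fold change was -0.24 and 0 members and 0 arm ratios were called. Over all alternatives, 154 values of a member's log2 fold change kept their sign and 15 turned it, as did 60 and 5 for arm ratios. Under total scaling, miR-30a-5p had a log2 fold change of -0.70, miR-30a-3p one of -0.56 and miR-30c-3p one of -0.56. With an RPM of at least 10 in all libraries it was -0.027 for miR-30a-5p, and miR-30b-3p was not tested. With Duroc libraries 1 and 3 left out, where Large white alone gave the spread, it was -0.49, -0.35 and -0.31 for the same 3 members, and the arm difference was 0.043 for mir-30c-2 and 0.20 for mir-30e. With miR-143-3p left out of the total the family held 1.84% of Duroc and 2.76% of Large white reads. Leaving out each library in turn, the log2 fold change ranged from -0.30 to 0.29 for miR-30a-5p, -0.075 to 0.39 for miR-30a-3p, -0.49 to 0.092 for miR-30b-3p, -0.21 to 0.038 for miR-30c-1-3p and -0.0038 to 0.31 for miR-30c-3p. The arm difference ranged from -0.29 to 0.039 for mir-30e and -0.55 to 0.28 for mir-30b. The number of members whose share of the family did not overlap between breeds ranged from 0 to 5 in place of 0, with 5 without Duroc library 2 and 1 without Duroc library 1, Duroc library 3 or Large white library 3. Without Duroc library 2, edgeR called 65 of 402 names and the smallest adjusted p of a member was 0.110. It was 0.316 to 0.672 under the other alternatives. Of all names, 5 of 637 were called with no filter, 11 by DESeq2 and 1 with the replicate block. The cause of these differences was not tested. Depth limited miR-30b-3p, miR-30c-3p and miR-30c-1-3p most.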
